A study of Homo sapiens with 11 samples.

Results

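The core genes of the circadian clock and the PAR bZIP transcription factors that it drives were examined in PC-3 tumours grown in mice. They are 10 genes, ARNTL, CLOCK, PER1, PER2, PER3, NR1D1, NR1D2, DBP, TEF and HLF, of the 25590 genes listed in the deposited tables, and all 10 had enough reads to be kept among the 16630 genes that were tested. These genes were selected on their textbook place in the clock and also on values measured in these same tumours, since their levels in the A2M* group relative to the PBS group were known when they were proposed. The differences of the 10 genes between the groups and the relations among them are therefore given as a description, with no test.

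The tumours were grown from PC-3, a line of human prostate cancer cells, and male athymic nude mice kept under a regular light and dark cycle had received these cells subcutaneously in matrigel. Once tumours were established, mice were injected repeatedly into the peritoneum with A2M*, the transformed form of alpha-2-macroglobulin that binds the receptor LRP1, or with PBS as control. RNA of 5 tumours from PBS-treated mice (T123 to T127) and 6 tumours from A2M*-treated mice (T128 to T132 and T112) was sequenced, with 1 library per tumour. The authors separated human from mouse reads and counted the human reads per gene. All tumours thus come from 1 cell line in hosts that lack a thymus, and each gives a single moment of the daily cycle. The time of day at which each tumour was removed is not given in the sources used here, nor is a sequencing batch. A difference in removal time between the groups therefore cannot be told apart from the treatment.

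In the mammalian clock the proteins ARNTL (now named BMAL1) and CLOCK bind together to E-box elements and switch on the genes of their own repressors, the PER proteins, and of the nuclear receptors NR1D1 and NR1D2 (REV-ERB alpha and beta). The PER proteins act with the cryptochromes CRY1 and CRY2 to block ARNTL and CLOCK, and the REV-ERB receptors repress ARNTL, so that ARNTL and the E-box driven genes peak at different times of day. DBP, TEF and HLF are the PAR bZIP factors. They carry the rhythm to further genes through D-box elements, and in peripheral tissues the RNA of DBP is among the most strongly rhythmic of all. In a population of cells that are out of step with each other the rhythm of single cells is not visible in the pooled RNA.

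Promoter sequence was read where it holds an element of this circuit, to show which of the 10 genes carry one near their start. RefSeq sequence of the assembly GRCh38.p14 was found for all 10 genes, and the 250 bases before each start site were searched on both strands for the E-box CACGTG, the D-box TTATGTAA or TTACGTAA, and the REV-ERB element TAGGTCA. These occurred in 6.34%, 0.94% and 1.61% of the 35116 promoters in the reference. The E-box was present before PER1 and before both annotated starts of TEF, and the D-box before 1 of the annotated starts of PER3. One start of NR1D2 had 2 E-boxes and 1 D-box. The windows of ARNTL, CLOCK, PER2, NR1D1, DBP and HLF held none of the 3 elements, which says only that these letters are not in these windows. The stretches below run 5′ to 3′ on the strand of the gene, with capitals for the element, in PER1 at chr17:8152552-8152597 on the minus strand, in PER3 at chr1:7784094-7784141, and in TEF at chr22:41367240-41367285 and chr22:41381729-41381774, the last 3 on the plus strand.
PER1, E-box: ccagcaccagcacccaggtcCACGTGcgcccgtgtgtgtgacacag
PER3, D-box: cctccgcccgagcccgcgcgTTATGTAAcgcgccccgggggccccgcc
TEF, E-box: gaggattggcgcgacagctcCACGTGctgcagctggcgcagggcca
TEF, other start, E-box: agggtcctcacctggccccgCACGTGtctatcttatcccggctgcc

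The libraries held 16958533 to 35874381 counted reads (26042224 to 35874381 for PBS, 16958533 to 33223999 for A2M*), and no pair of libraries agreed within counting noise. The tumours had the epithelial RNA of the cell line in every library, with KRT8 at 205 to 280 and KRT18 at 257 to 376 RPKM (read counts scaled by library total and exon length), and no read of KLK3, the prostate-specific antigen that PC-3 lacks. TMPRSS2, a protease gene of prostate epithelium, was at 10.2 to 24.4 RPKM. Over all 16630 genes the quasi-likelihood test of edgeR was used to compare the groups. At an adjusted p under 0.01 it called 0 genes (0.0%), with a smallest adjusted p of 0.599, while DESeq2 called 1 gene and limma-voom 0. At an unadjusted p under 0.05 edgeR gave 1178 genes (7.08%), 591 of them with higher (3.55%) and 587 with lower values (3.53%) in the A2M* tumours. When single tumours were left out this count ranged from 682 (without T125) to 1684 (without T132), and it was 766 without T131. None of the 10 clock genes was called by any of the 3 tools. At the unadjusted level edgeR gave PER2, PER3 and TEF higher and ARNTL lower, a count that the choice of genes had in view. In these bulk samples fewer cells that express a gene and less RNA per cell cannot be told apart.

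As a group, 8 of the 10 genes had a higher and 2 a lower fitted level in the A2M* tumours. The median log2 fold change was 0.20 over the 10 genes and -0.00213 over all genes tested, where 8220 were higher and 8410 lower. The median size of the change, without regard to sign, was 0.23 for the clock genes and 0.0854 for all genes. Their median spread within a group (SD of log2 CPM) was 0.239, next to 0.185 for all genes. By role, all 3 outputs were higher, with a median of 0.38, 4 of 5 repressors were higher, with a median of 0.17, and the activators were split.

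**Figure D1:**
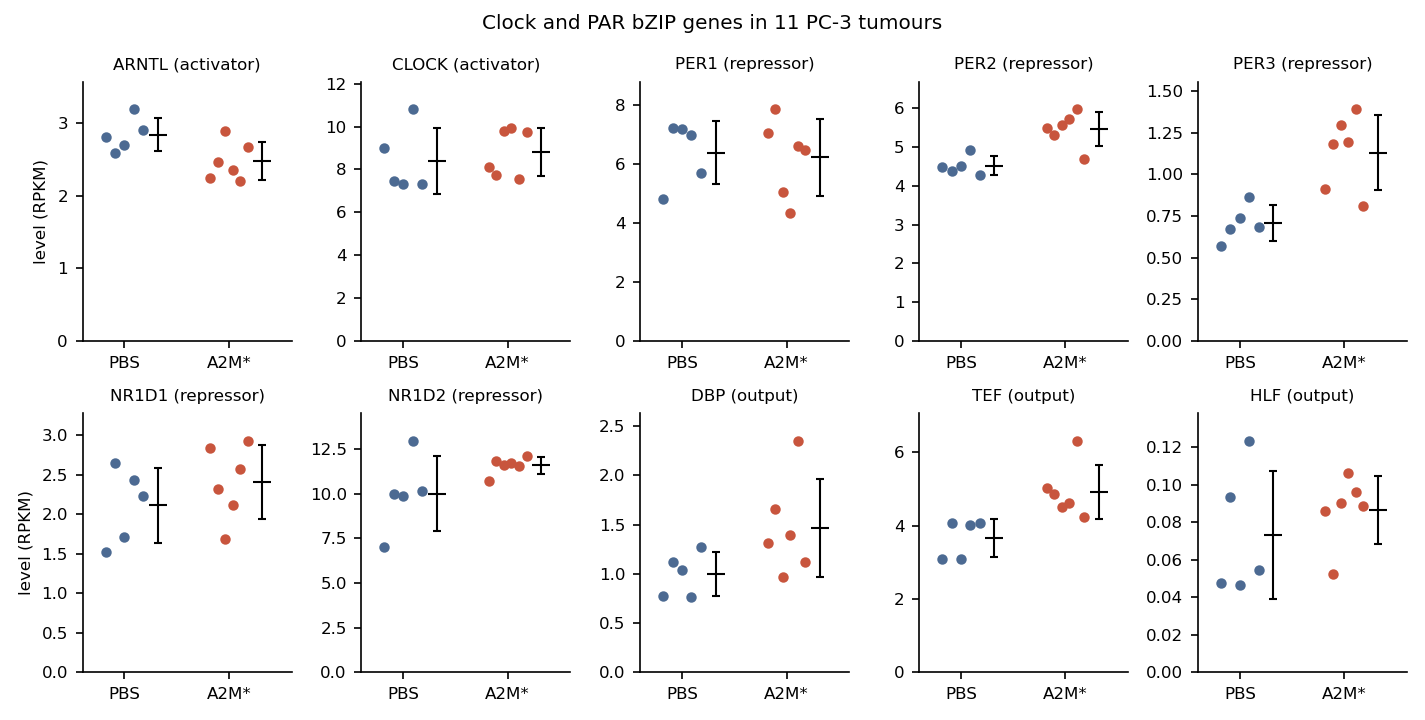
Level of each of the 10 genes in RPKM (vertical axes, all starting at 0) in the 5 PBS tumours (blue) and 6 A2M* tumours (red). Each point is a tumour and the black bars are the mean and SD of a group. The TEF groups do not overlap, PER2 and PER3 have 5 of 6 A2M* tumours above every PBS tumour, and ARNTL has 4 of 6 below every PBS tumour.

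The genes differed widely in level, and their order was the same by mean in both groups. From high to low it ran NR1D2, CLOCK, PER1, PER2, TEF, ARNTL, NR1D1, DBP, PER3 and HLF. In the PBS tumours NR1D2 had 9.997 ± 2.10 RPKM (SD, n = 5), above 60.6% of the genes tested, and HLF had 0.0733 ± 0.0340, above 0.698% of them. Neighbours in this order were not always apart: in the PBS group NR1D2 exceeded CLOCK in 4 of 5 tumours, ARNTL exceeded NR1D1 in 4 of 5 and DBP exceeded PER3 in 4 of 5, while each of the other pairs held its order in 5 of 5. In the A2M* group ARNTL and NR1D1 were not distinguishable, with ARNTL the higher in 3 of 6 tumours and a ratio of means of 1.03. There PER1 exceeded PER2 in 4 of 6 tumours, and CLOCK exceeded PER1, PER2 exceeded TEF and DBP exceeded PER3 in 5 of 6. The remaining pairs held their order in 6 of 6. The ratio of means of TEF to ARNTL was 1.29 in the PBS group and 1.99 in the A2M* group.

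ARNTL (chr11:13298199-13408813 in GRCh37, plus strand) encodes the activator whose RNA is the usual marker of the phase opposite to DBP. Its level was 2.81, 2.59, 2.70, 3.19 and 2.91 RPKM in PBS tumours T123 to T127. In the A2M* tumours it was 2.25, 2.47, 2.89, 2.36 and 2.21 RPKM in T128 to T132 and 2.67 in T112. The ranges overlapped, with 4 A2M* tumours (T128, T129, T131 and T132) below every PBS tumour and 2 PBS tumours (T126 and T127) above every A2M* tumour. The log2 fold change was -0.24 (SE 0.0953), a factor of 0.847, and 86.8% of all genes tested had a smaller change in either direction. ARNTL was also one of the steadier genes within a group, with a coefficient of variation of 8.04% in PBS and 10.7% in A2M* tumours, not far above the 6.94% that counting alone gives at 120 to 299 reads. In GENCODE exons of ARNTL overlap those of a long non-coding RNA gene on the opposite strand.

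CLOCK (chr4:56294070-56413076, minus strand), the partner of ARNTL and in most tissues only weakly rhythmic as RNA, had nearly the same level in both groups by fitted value. It was at 9.02, 7.45, 7.33, 10.8 and 7.30 RPKM in the PBS tumours, and between 7.57 and 9.95 RPKM in the A2M* tumours with a median of 8.93. All A2M* values lay within the PBS range. Its log2 fold change was 0.03 (SE 0.109), and the sign turned when T127, T125 or T112 was left out, with a lowest value of -0.01. Exons of CLOCK overlap those of TMEM165 on the opposite strand.

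Among the repressors, PER2 and PER3 had higher values in most A2M* tumours, and PER1 had values spread alike in both groups. PER3 (chr1:7844351-7905237, plus strand), the period gene with the D-box shown above before 1 of its starts, had 0.572, 0.671, 0.737, 0.866 and 0.681 RPKM in the PBS tumours. In the A2M* tumours it had 0.910, 1.18, 1.29, 1.19 and 1.39 RPKM in T128 to T132 and 0.809 in T112. Thus 5 of the treated tumours lay above every control, and T112 fell between T125 and T126. The mean was 0.705 ± 0.108 (SD, n = 5) for PBS and 1.13 ± 0.225 (n = 6) for A2M*, with a log2 fold change of 0.63 (SE 0.149) or 1.54-fold, and 98.9% of all genes tested had a smaller change. It rests on 109 to 212 reads per tumour, and its exons overlap those of UTS2 on the opposite strand.

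PER2 (chr2:239152685-239198743, minus strand), a negative limb protein of the central feedback loop, showed a smaller difference on a far tighter spread. It had 4.48, 4.37, 4.52, 4.92 and 4.29 RPKM in the PBS tumours and 5.50, 5.32, 5.56, 5.73, 5.97 and 4.68 RPKM in T128 to T132 and T112. Again T112 was the single A2M* tumour within the PBS range. This gave a log2 fold change of 0.23 (SE 0.0676), or 1.17-fold. Within a group PER2 varied less than nearly all genes, with only 8.41% of the genes tested having a smaller SD of log2 CPM. Its exons also overlap those of a long non-coding RNA gene on the opposite strand.

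PER1 (chr17:8043790-8059824, minus strand) carries an E-box before its start and is also induced directly by hormones and other signals. It had 4.82, 7.20, 7.18, 6.97 and 5.68 RPKM in the PBS tumours and 4.31 to 7.84 RPKM in the A2M* tumours with a median of 6.54. The A2M* range enclosed the PBS range. Its log2 fold change was -0.08 (SE 0.16), where 47.9% of all genes tested had a smaller change, and it was 0.01 without T131. In GENCODE an exon of PER1 overlaps another gene on the same strand. Whether the RefSeq annotation used for counting held that gene was not checked, so an effect on the reads of PER1 is not known.

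NR1D2 (chr3:23986777-24022108, plus strand), the gene of REV-ERB beta, had 7.03, 9.96, 9.88, 13.0 and 10.2 RPKM in the PBS tumours. The A2M* tumours lay close together, between 10.7 and 12.1 RPKM with a median of 11.7. They lay above 4 of the 5 PBS tumours and below T126. The coefficient of variation was 21.0% in the PBS group and 4.09% in the A2M* group, with T123 as the lowest and T126 as the highest of all 11 tumours. The log2 fold change was 0.17 (SE 0.115), and it was 0.06 without T123.

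NR1D1 (chr17:38249046-38256842, minus strand), the gene of REV-ERB alpha, had 1.52, 2.65, 1.72, 2.44 and 2.23 RPKM in the PBS tumours and 1.68 to 2.93 RPKM in the A2M* tumours with a median of 2.44. The groups overlapped over most of their range, with a log2 fold change of 0.15 (SE 0.176) that was 0.05 without T123. Its level is uncertain, because its exons overlap those of THRA on the opposite strand. Neither a strand-specific step in the library preparation nor the strand setting of the counting is given in the sources used here. THRA, a thyroid hormone receptor gene, had 2.37 ± 0.352 RPKM in the PBS and 2.42 ± 0.295 in the A2M* tumours, with a log2 fold change of -0.02.

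The PAR bZIP outputs were led by TEF. TEF (chr22:41763337-41795330, plus strand) overlaps no other annotated exon and has an E-box before each of its starts. It had 3.08, 4.07, 3.10, 4.02 and 4.07 RPKM in the PBS tumours. In the A2M* tumours it had 5.02, 4.87, 4.51, 4.62 and 6.32 RPKM in T128 to T132 and 4.24 in T112. The groups did not overlap: the lowest A2M* tumour, T112, lay just above the highest PBS tumours. Of all genes tested, 64 were separated in this way with the A2M* tumours higher, or 0.385%, and TEF was the single clock gene among the 10 that was. TEF had a log2 fold change of 0.38 (SE 0.117), or 1.30-fold, which stayed between 0.30 and 0.43 under all alternatives run.

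DBP (chr19:49133287-49140636, minus strand) is the output gene most often used to read the state of the clock. It had 0.777, 1.124, 1.04, 0.763 and 1.28 RPKM in the PBS tumours. In the A2M* tumours it had 1.31, 1.66, 0.968, 1.39 and 2.35 RPKM in T128 to T132 and 1.117 in T112. In all, 4 treated tumours were above every control, while T130 and T112 lay inside the control range. T132 stood far above the rest. T132 and T129, the highest in DBP, were also the smallest libraries, with 22310631 and 16958533 counted reads.

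The log2 fold change of DBP was 0.48 (SE 0.225), or 1.40-fold, larger in size than that of 97.5% of the genes tested, but without T132 it was 0.30. DBP rests on 36 to 95 reads per tumour, where counting alone gives a coefficient of variation of 13.0%, and those seen were 22.4% in PBS and 33.7% in A2M* tumours. Exons of DBP overlap those of SPHK2 on the opposite strand, so some of these reads cannot be assigned with certainty.

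HLF (chr17:53342321-53402548, plus strand), the third PAR bZIP gene, was close to the limit of what the libraries could show. It had 0.0479, 0.0937, 0.0467, 0.123 and 0.0548 RPKM in the PBS tumours and 0.0527 to 0.106 RPKM in the A2M* tumours, from 5 to 18 reads per tumour. All A2M* values lay within the PBS range, and a difference was not detectable at this depth (log2 fold change 0.25, SE 0.278, and 0.13 to 0.48 when single tumours were left out).

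**Figure D2:**
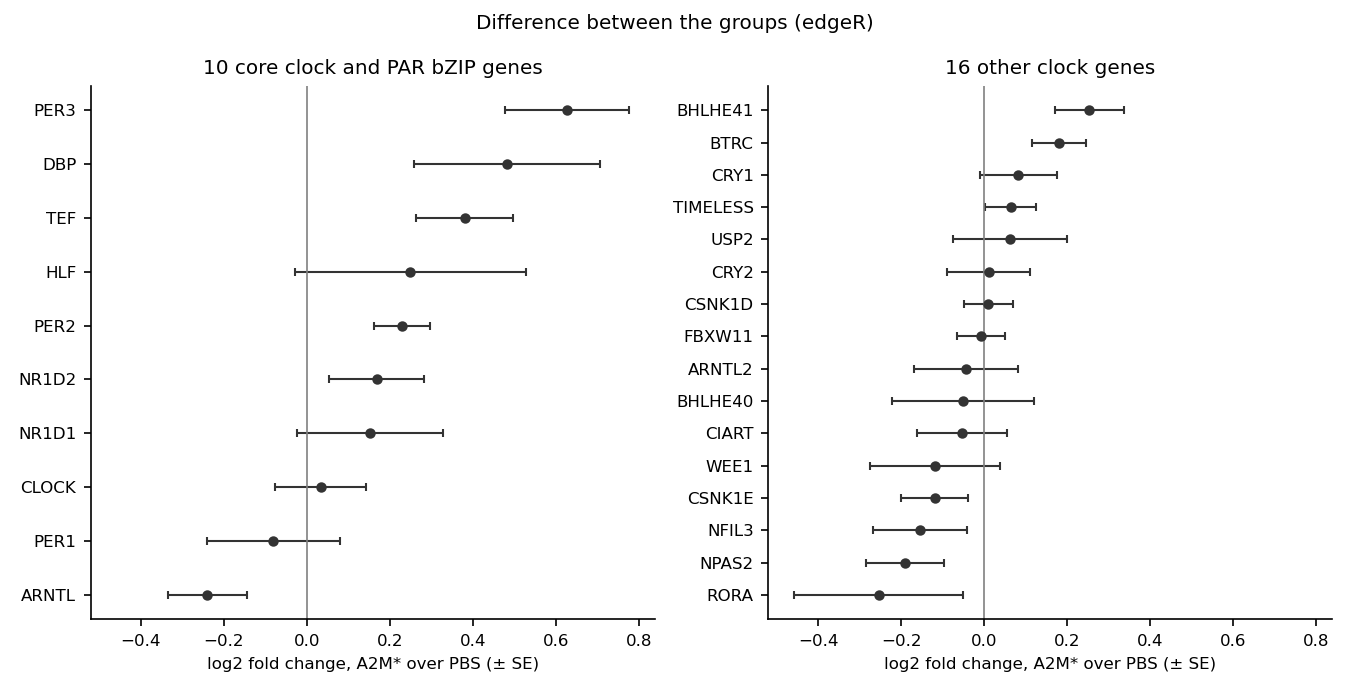
Log2 fold change of A2M* over PBS tumours from edgeR (horizontal axis, where point and bar are the estimate and its standard error) for the 10 clock and PAR bZIP genes (left) and the 16 other clock genes tested (right). PER3 is highest at 0.63 and ARNTL lowest at -0.24 on the left, and the other clock genes lie between -0.25 and 0.25.

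Because ARNTL and the E-box driven genes are out of phase, their ratio within a tumour is a measure of the balance between activator and output that does not depend on library size. The RPKM ratio of DBP to ARNTL was 0.277, 0.433, 0.387, 0.239 and 0.439 in the PBS tumours. In the A2M* tumours it was 0.584, 0.673, 0.334, 0.591 and 1.07 in T128 to T132 and 0.418 in T112. The groups overlapped through T130 and T112, and T132 was the single tumour with more DBP than ARNTL.

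On the log2 scale the DBP to ARNTL ratio was 0.71 higher in the A2M* tumours, with an SD of 0.38 among the PBS and 0.56 among the A2M* tumours. Leaving out single tumours moved this between 0.53 (without T132) and 0.86 (without T130). For PER3 and PER2 the ratio to ARNTL separated the groups: PER3 to ARNTL was 0.204 to 0.273 in the PBS and 0.303 to 0.630 in the A2M* tumours, and PER2 to ARNTL was 1.47 to 1.69 and 1.75 to 2.71. TEF to ARNTL (1.10 to 1.57 against 1.56 to 2.86) and NR1D2 to ARNTL (2.51 to 4.06 against 4.01 to 5.24) each had 5 of 6 A2M* tumours above every PBS tumour, and NR1D1 and PER1 to ARNTL each had 3. All of these ratios share ARNTL as their denominator and so are not separate observations. PER2, PER3 and ARNTL were also chosen with their levels in both groups known, so the separation of their ratios is no test. How many ratios of other genes to ARNTL separate the groups was not counted.

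**Figure D3:**
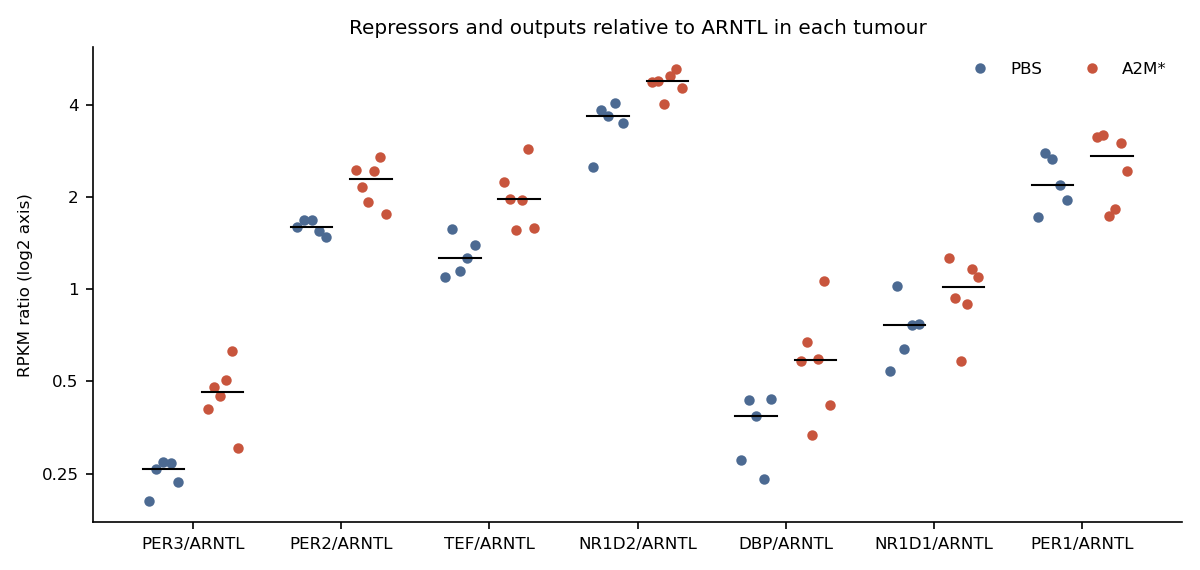
RPKM of 7 repressor and output genes divided by that of ARNTL in the same tumour (vertical axis, log2 scale). Each point is a tumour, blue for PBS and red for A2M*, and lines are group medians. PER3/ARNTL and PER2/ARNTL do not overlap between the groups, and the highest point of DBP/ARNTL is T132 at 1.07.

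The 2 extremes of the series were single tumours. T132 had the highest level of all 11 tumours for PER2, PER3, DBP and TEF and the lowest for ARNTL. T123, a control, had the lowest PER3, NR1D1 and NR1D2. Within the A2M* group T112 had the lowest PER2, PER3 and TEF, and T130 had the highest ARNTL with the lowest DBP and NR1D1.

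Relations between the genes across the 11 tumours differed from pair to pair. The closest pair was PER2 and PER3, with Pearson's r of log2 CPM of 0.924 (Spearman's rho 0.918) and 0.786 after both genes were centred on their group means. DBP and TEF followed with 0.80 (rho 0.809, and 0.702 after centring). The strongest opposite pair was ARNTL and DBP, with -0.771 (rho -0.791, and -0.652 after centring), and r was -0.667 without T126 and T132, the tumours farthest from the median.

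Pairs of an output and a repressor had a positive r in 14 of 15 cases, with a median of 0.502 and the same count of 14 after centring. Pairs of an activator and an output were positive in 1 of 6, with a median of -0.437, the exception being CLOCK and HLF. Pairs of an activator and a repressor were positive in 4 of 10, with a median of -0.0945, and pairs of repressors in 8 of 10, with a median of 0.40. Some relations shrank once the group means were removed: ARNTL and PER3 went from -0.56 to 0.03 after centring, and ARNTL and PER2 from -0.747 to -0.399. CLOCK and DBP went the other way, from -0.643 to -0.834. PER1 kept apart from the other period genes (r = -0.108 with PER2 and -0.0768 with PER3) and was closest to NR1D1, with 0.575. DBP and HLF had r = 0.0138, at the read numbers of HLF given above. These values describe 45 pairs over the same 11 libraries, which share their depth and normalization.

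**Figure D4:**
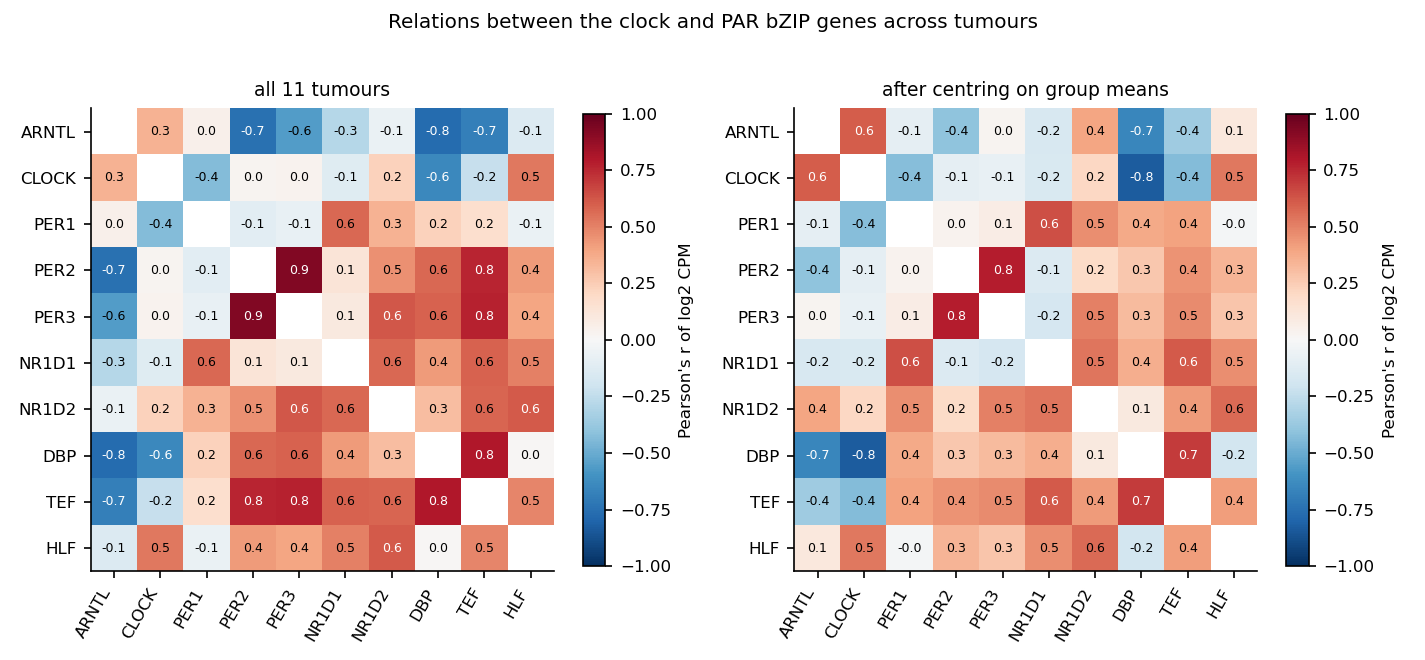
Pearson's r of log2 CPM between each pair of the 10 genes over the 11 tumours (left) and after centring each gene on its group mean (right), where the colour scale runs from -1 (blue) to 1 (red). The block of PER2, PER3, DBP and TEF is positive, and ARNTL is negative with PER2, PER3, DBP and TEF on the left but at 0.03 with PER3 on the right.

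The rest of the clock was examined next, from a list of 18 regulators, paralogs and targets, of which 16 were tested and RORB and FBXL21 had 0 reads in all 11 tumours. None of the 16 was called by edgeR, DESeq2 or limma-voom, and in edgeR 2 passed an unadjusted p under 0.05 (7.08% over all genes), both higher in the A2M* tumours. Their median log2 fold change was -0.02, with 7 higher and 9 lower. BHLHE41 (DEC2, a repressor at E-boxes) had 84.6 ± 6.09 RPKM in PBS (SD, n = 5) and 104.0 ± 11.7 in A2M* tumours (n = 6), with 5 of 6 A2M* tumours above every PBS tumour and a log2 fold change of 0.25 (SE 0.0829, edgeR adjusted p = 0.64). Its exons overlap those of SSPN on the opposite strand. BTRC, a subunit of the ubiquitin ligase that marks PER proteins for degradation, had 6.02 ± 0.352 and 7.03 ± 0.520 RPKM, with all 6 A2M* tumours above every PBS tumour and a log2 fold change of 0.18 (SE 0.0649, edgeR adjusted p = 0.64).

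The cryptochromes, which act beside the PER proteins, had smaller fitted differences than PER2 and PER3, a contrast between genes that was not tested. CRY1 had a log2 fold change of 0.08 (SE 0.0931) and CRY2 of 0.01 (SE 0.0995), with 12.2 ± 1.40 against 13.3 ± 1.54 and 5.00 ± 0.291 against 5.21 ± 0.726 RPKM. CIART, a repressor of ARNTL and CLOCK with 3 E-boxes in its promoter window, more than any of the 10 genes, had 8.32 ± 0.915 and 8.27 ± 0.987 RPKM and a log2 fold change of -0.05 (SE 0.109). Among the genes searched, an E-box before the start thus occurred in TEF, which stood higher, and in BHLHE41, which passed the unadjusted threshold. It also occurred in PER1, CIART, NR1D2, BHLHE40 and TIMELESS, whose log2 fold changes were -0.08, -0.05, 0.17, -0.05 and 0.06. No promoter sequence was found for BTRC, CSNK1D and WEE1, so whether they carry an E-box is not known here. For comparison with the stretches above, those of CIART (chr1:150282405-150282522, plus strand) and BHLHE41 (chr12:26125060-26125105, minus strand) in GRCh38.p14 were:
CIART, E-boxes: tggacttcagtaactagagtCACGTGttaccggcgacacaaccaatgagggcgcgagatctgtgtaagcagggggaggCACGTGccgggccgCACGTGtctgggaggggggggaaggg
BHLHE41, E-box: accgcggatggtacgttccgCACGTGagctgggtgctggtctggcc

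NPAS2 and ARNTL2, the paralogs that can stand in for CLOCK and ARNTL, were more abundant than these in every group. NPAS2 had 34.1 ± 1.28 RPKM in the PBS and 30.8 ± 4.41 in the A2M* tumours, with 5 of 6 A2M* tumours below every PBS tumour (log2 fold change -0.19, SE 0.0936, edgeR adjusted p = 0.718). ARNTL2 had 21.8 ± 2.35 and 21.7 ± 4.001 RPKM, against 2.84 ± 0.228 and 2.47 ± 0.266 for ARNTL itself. T132, the tumour with the lowest ARNTL, also had the lowest ARNTL2, at 14.5 RPKM.

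Of the remaining regulators, RORA and NFIL3, which act on the same elements as the REV-ERB receptors and the PAR bZIP factors, had log2 fold changes of -0.25 and -0.15. BHLHE40, TIMELESS, USP2 and WEE1 had -0.05, 0.06, 0.06 and -0.12. The kinase genes CSNK1D and CSNK1E had 0.01 and -0.12, and FBXW11 had -0.01. Each of these 9 genes had an adjusted p of 0.827 or more. Exons of CSNK1E overlap those of TPTEP2-CSNK1E on the same strand, and not every exon overlap of the other clock genes is named here.

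DBP and ARNTL were next set against the other clock genes, a list that was also fixed with earlier results of these data known. Here and for the lists below, the permutation exchanged tumours between the groups. Differences between the groups, known beforehand for DBP and ARNTL, therefore enter these p-values, and they are no independent test. Over 32 relations of the 16 other clock genes with DBP or ARNTL, none passed an adjusted p under 0.05 (permutation test with 100000 resamples, two-sided, Benjamini-Hochberg). CSNK1D, a kinase that phosphorylates PER proteins, was closest to DBP with r = 0.712 (permutation p = 0.012, adjusted p = 0.287, rho 0.618, permutation p = 0.0474, adjusted p = 0.542), and r was 0.431 without T126 and T132 and 0.797 after centring on the group means. Exons of CSNK1D overlap those of SLC16A3 on the opposite strand. Without centring BTRC was closest to ARNTL with r = -0.696 (permutation p = 0.0179, adjusted p = 0.287, rho -0.682, permutation p = 0.0257, adjusted p = 0.542), and r was -0.529 without T128 and T132 and -0.334 after centring. After centring FBXW11, a paralog of BTRC, was closest to ARNTL with 0.713 (0.535 without centring, permutation p = 0.0919, adjusted p = 0.368, rho 0.473, permutation p = 0.145, and r = 0.0542 without T128 and T132).

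Outside the 10 genes, 13706 tested genes reached a mean log2 CPM of 1 or more, and among these TSC22D3 followed DBP most closely. TSC22D3, a gene induced by glucocorticoids, had r = 0.96 with DBP (rho 0.927, and 0.949 after centring on the group means, n = 11), picked from all candidates by this value. It was at 9.88 to 12.3 RPKM in the PBS and 11.2 to 15.2 in the A2M* tumours, highest in T132 as DBP was, with a log2 fold change of 0.21 (SE 0.0876, edgeR adjusted p = 0.663). MAST3, KLHL17, DENND4B and TUBA3FP came next, with r from 0.934 down to 0.915. For ARNTL the closest were BECN1 (r = 0.924 but rho 0.691), CCNY, DPY19L1P1, LRBA and TPI1P2 (0.874).

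**Figure D5:**
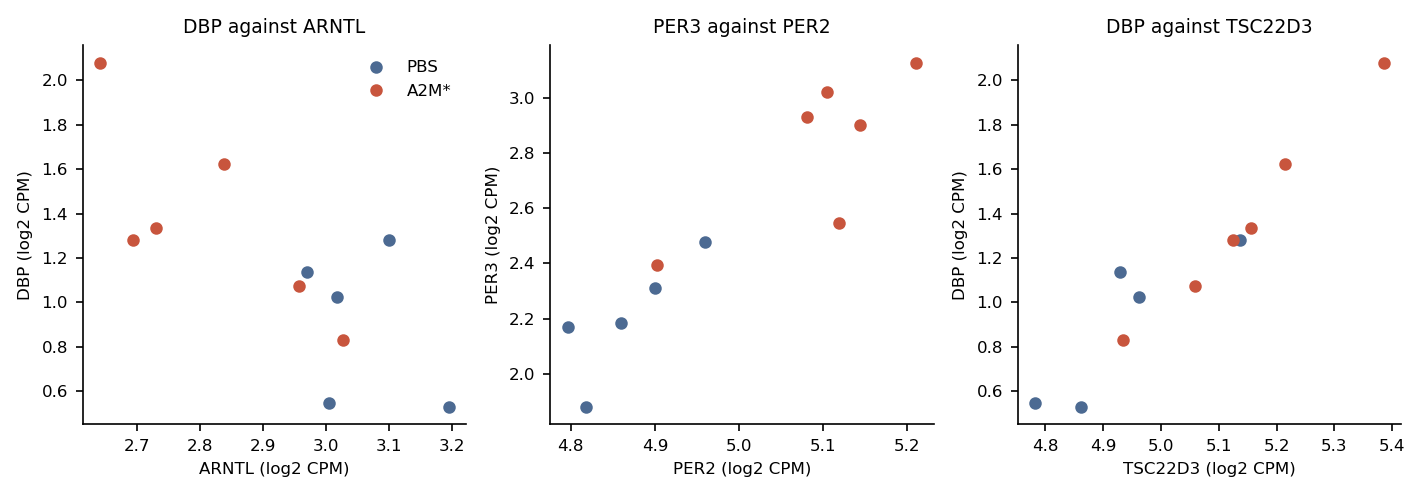
Log2 CPM of DBP against ARNTL (left), PER3 against PER2 (middle) and DBP against TSC22D3 (right). Each point is a tumour, blue for PBS and red for A2M*. DBP falls as ARNTL rises (r = -0.771), PER3 rises with PER2 (r = 0.924) and DBP rises with TSC22D3 (r = 0.96), with T132 at the upper end of DBP in the left and right panels.

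Lists of genes of other programs that can act on clock genes were also set against the groups, and their part in the values above was not tested. These lists were chosen with earlier results of these data known, so the counts over them are a description. All 12 hypoxia targets examined were lower in the A2M* tumours by fitted value, with a median log2 fold change of -0.60. Of these, 8 of 12 were lower at an unadjusted edgeR p under 0.05, next to 3.53% of all genes tested. Of 10 heat shock genes, 9 were higher, with a median of 0.29. At the same level 5 of the 10 were higher, next to 3.55% of all genes tested. None of the genes of these or the following lists was called by edgeR. Of 9 glucocorticoid receptor targets tested, 6 were higher with a median of 0.05, and besides TSC22D3 the targets FKBP5 and KLF9 had log2 fold changes of 0.01 (SE 0.124) and 0.21 (SE 0.298). The 9 immediate early genes tested had a median of -0.03.

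None of the 12 relations of these lists, the host score and the total count with DBP or ARNTL passed an adjusted p under 0.05. The total count had r = -0.364 with DBP (permutation p = 0.273, adjusted p = 0.547, rho -0.2, permutation p = 0.558, r = -0.337 without T126 and T132, and -0.127 after centring on the group means). Within the groups this r was 0.899 in the PBS and -0.541 in the A2M* tumours. The hypoxia score had r = 0.0427 with DBP (permutation p = 0.901, adjusted p = 0.932, rho -0.145, permutation p = 0.674, and r = 0.036 without T126 and T132, but 0.565 after centring on the group means) and 0.445 with ARNTL (permutation p = 0.169, adjusted p = 0.547, rho 0.455, permutation p = 0.163, r = 0.501 without T128 and T132, and 0.00757 after centring). Without centring the closest relation was that of the heat shock score with ARNTL, at r = -0.626 (permutation p = 0.041, adjusted p = 0.492, rho -0.518, permutation p = 0.108, r = -0.624 without T128 and T132, and -0.346 after centring). The glucocorticoid target score had r = 0.535 with DBP (permutation p = 0.0896, adjusted p = 0.537, rho 0.427, permutation p = 0.193, r = 0.671 without T126 and T132, and 0.53 after centring). This score includes TSC22D3, the gene picked above for its closeness to DBP, and was not computed without it.

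Markers of host cells were measured as well, since mouse reads can stay among the human ones. The 21 host markers summed to 383 to 728 RPM (counts scaled to a common total) in the PBS and 380 to 984 in the A2M* tumours, with medians of 469 and 715, most of it COL1A1 at 295 to 880 RPM. The defining markers differed within cell types. For muscle ACTA1 had 117 to 248 reads per tumour, but MYH4 had at most 3 and CKM at most 4, and for red cells HBB had at most 18 and HBA1 and HBA2 at most 1. For endothelium PECAM1 had 238 to 803 reads but CDH5 2 to 17, for leukocytes CD68 had 381 to 902, LYZ 116 to 245 and PTPRC 21 to 69, and for fibroblasts COL3A1 had 224 to 1247 but DCN at most 3. The mean score of the 10 host markers with enough reads was -0.0176 in the PBS and 0.0146 in the A2M* tumours, with r = 0.249 with DBP (permutation p = 0.464, adjusted p = 0.557, rho 0.218, permutation p = 0.521, and r = 0.0168 without T126 and T132).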

How the data were processed

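The authors prepared TruSeq libraries, converted base calls with bcl2fastq 1.8.4, separated human from mouse reads with xenome, mapped to hg19 with TopHat and counted reads per RefSeq gene with featureCounts. Versions of xenome and featureCounts and the strand setting are not given in the sources used here. The counts were deposited as whole numbers with no scaling. The deposited RPM divide each count by the total of the tumour, which was checked (largest difference 4.99e-07), and the deposited RPKM further divide by exon length. Mouse reads were not used here. Each library is 1 tumour of 1 mouse. The pair of groups shares no tumour numbers, so no tumours were paired.

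Counts were filtered with filterByExpr, scaled with TMM (factors 0.958 to 1.03) and tested with edgeR 4.0.16 in R 4.3.3 (quasi-likelihood, Benjamini-Hochberg over 16630 genes, threshold 0.01). Log2 CPM used a prior count of 2, and scores are mean z-scores of the listed genes whose mean log2 CPM was 0 or more. Levels are RPKM. A total of 3 counts equals 0.0836 to 0.177 RPM, which covers counting error only. The steps were tested on simulated data. Of 200 genes changed 1.5-fold between the groups, edgeR recovered 52.0% at the threshold used. It recovered 79.0% at 2-fold and 97.5% at 4-fold. Smaller changes were not simulated, so a count of 0 genes called does not show that such changes are absent. Alternatives were RLE factors, library size only, no filter, DESeq2 1.42.0, limma-voom (limma 3.58.1), other thresholds, RPKM with a pseudocount of 0.1, RPM, Spearman's rho, centring on groups, and each tumour left out.

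The 10 genes, the lists and the tests were chosen with earlier results of these data known. Named are all 10, the other clock genes, THRA, and the 5 genes most like DBP and ARNTL. Some genes of the lists are not reported here and were left out of the counts over them. Genes were matched to GENCODE positions in GRCh37 and to RefSeq promoters in GRCh38.p14. Figures were drawn with matplotlib 3.10.9.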

Additional observations from a re-analysis of the deposited data

Results flagged for a closer look

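Single tumours standing apart from the rest of their group were searched in 68 groups of RPKM values, and 3 were found, where chance alone gives about 1 in 20 groups, or 3.4. None was in one of the 10 core clock and PAR bZIP genes. ARNTL2 was at 25.8 RPKM in PBS tumour T126 and at 19.8 to 21.5 in the other PBS tumours. BHLHE40 was at 105.0 RPKM in A2M* tumour T112 and at 56.2 to 68.1 in the other A2M* tumours. BTRC was at 5.4 RPKM in PBS tumour T125 and at 6.06 to 6.26 in the other PBS tumours.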

How the results depend on the processing

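The number of genes called was 0 under every normalization, filter and omission run and with limma-voom, and 1 with DESeq2. It was 241 of the 16630 genes tested (122 higher, 119 lower) where edgeR and DESeq2 each gave an unadjusted p no larger than 0.01. Beside that share over all genes, this last rule counted 3 of the 10 genes, which were chosen with this contrast known. It also counted 1 of the 16 other clock genes tested, BHLHE41. All other alternatives counted 0 of the other clock genes. No relation with DBP or ARNTL passed in any alternative. Over 160 alternative values of the 10 genes none moved by more than the spread within groups, and the 4 changes of sign were in PER1 and CLOCK. DBP dropped to 0.30 without T132, NR1D1 to 0.05 and NR1D2 to 0.06 without T123, and HLF ranged from 0.13 to 0.48. The log2 ratio of DBP to ARNTL was 0.68 from RPKM and 0.73 from RPM.

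Among the other clock genes, 21 of 256 values changed sign, in 8 genes whose change was small, and the cause was not tested. With library size only FBXW11 had 0.0371, and with limma-voom CRY2 had -0.00634. Leaving out 1 tumour at a time, log2 fold changes ranged from -0.117 to 0.0513 for ARNTL2, from -0.216 to 0.0844 for BHLHE40, from -0.119 to 0.0254 for CIART, from -0.0362 to 0.0614 for CRY2, from -0.0172 to 0.0345 for CSNK1D, from -0.0249 to 0.017 for FBXW11, from -0.0126 to 0.163 for USP2 and from -0.229 to 0.0425 for WEE1. Depth limits HLF (5 to 18 reads), RORA (34 to 75 reads) and DBP (36 to 95 reads) most.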
